A study of Mus musculus with 17 samples.

Results

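The genes described are the ligands, receptors and closest partners of the tumor necrosis factor (TNF) superfamily, with the TRAF adaptors and the Tnfaip genes. Members were chosen by gene symbol alone: symbols beginning with Tnfrsf, Tnfsf or Tnfaip, the TRAF adaptors Traf1 to Traf7, and Tnf, Lta, Ltb, Ltbr, Cd40, Cd40lg, Fas, Fasl, Cd27, Cd70, Eda and Edar. The rule took 60 of the 23719 rows of the count table.

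RNA was sequenced from the colons of male C57BL/6 mice aged 32 to 34 weeks, to ask what an exposure to pyridostigmine bromide (PB), which blocks acetylcholinesterase reversibly, leaves behind in the colon in a model of Gulf War Illness (GWI). The Control group held 9 mice on water, and the GWI group held 8 mice that drank PB at 2 mg/kg for 7 days. PB was then withdrawn for 21 days, while the treatment notes place the end of the experiment at day 30. Mice are named by group and replicate number, and that each replicate was a separate mouse is taken from the labels. Parts of the original names are shared by 12 of the mice within their group, what they mark is not given, and each p-value treats the mice as independent. Totals of 16744096 to 20741212 counts per Control mouse (median 17761682) and of 16293537 to 18389686 counts per GWI mouse set the depth.

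TNF superfamily ligands are mostly trimers on the surface of immune and stromal cells that cluster receptors on a neighboring cell. Receptors with a death domain can recruit caspases, many others bind TRAF adaptors, and some are decoys or soluble. TRAF adaptors take part in the ubiquitin signaling that switches on NF-kB and MAP kinases. In the intestine these signals shape lymphoid tissue, epithelial renewal and cell death, and the response to microbes.

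Receptors and adaptors supplied most of the members that edgeR called higher in GWI colons, and the 2 ligands that it called were both lower. Of the 60 members, 42 had enough counts to be tested and 18 did not. Among the 42, 8 were higher and 4 were lower in GWI mice by an adjusted p under 0.05 (edgeR quasi-likelihood test with Benjamini-Hochberg adjustment over all 14146 tested genes, the test behind each adjusted p given here with no other tool named). That is 28.6% of the tested members, beside 26.8% of all tested genes. The higher members made up 19.0% of those tested, beside 13.4% of all genes, and the lower ones 9.52%, beside 13.5%. The overall share of members that changed was therefore near that of the whole table. The median log2 fold change was 0.17 over the tested members and -0.06 over all tested genes. In 1 member, Traf4, the values of the groups did not overlap (2.38% of the tested members, beside 2.35% of all tested genes). With the threshold of the study (unadjusted p under 0.05, with a log2 fold change beyond 1 in either direction) 1 of the 42 tested members passed in edgeR, Cd40, while 2.42% of all tested genes did, and in the DESeq2 Wald test, which was run on all 60, Cd40 and Tnf passed. The count of higher members moved with single mice: it was 5 when Control 3, Control 6, GWI 4, GWI 5, GWI 6 or GWI 7 was left out, and 12 without Control 1. The whole table moved too: in that order 1610, 1687, 1539, 1857, 1521 and 1472 genes were higher. Without Control 1 there were 2523, beside 1889 with all mice.

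**Figure D1:**
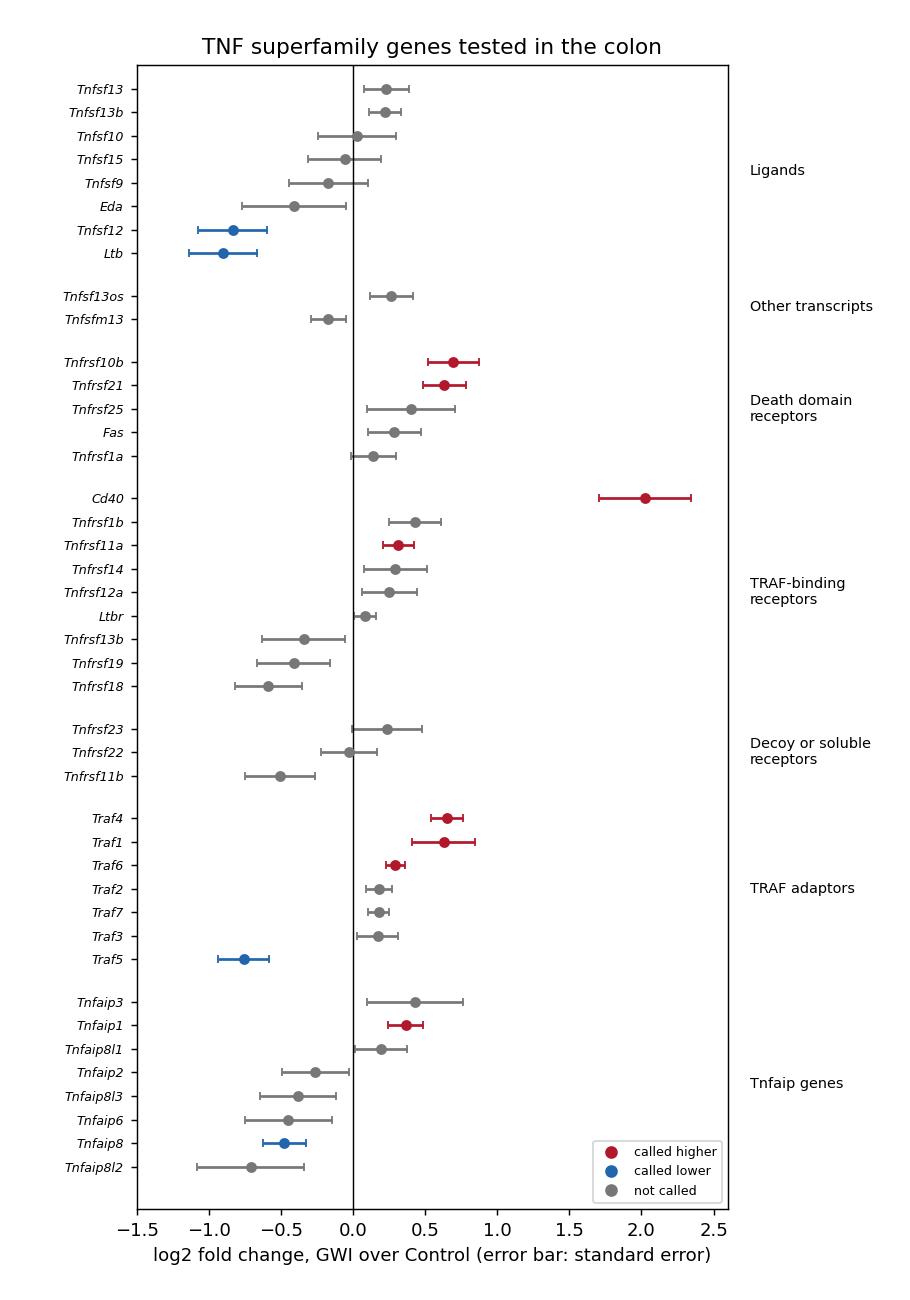
Log2 fold change of GWI over Control (horizontal axis) for the 42 tested members, grouped by role, with points colored by call and bars showing the standard error. Cd40 lies farthest to the right at 2.02, and the called ligands, Tnfsf12 and Ltb, lie to the left of 0.

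The ligands were scarce in the colon. Of the 18 ligand genes 8 were tested, 0 were higher, 2 were lower, and their median log2 fold change was -0.12. At an unadjusted p under 0.05, edgeR also had 0 higher and 2 lower, whereas the DESeq2 Wald test called 1 higher (Tnf, too rare for edgeR) and limma-voom 3 higher (Tnfsf10, Tnfsf13 and Tnfsf13b) and 3 lower (Eda, Ltb and Tnfsf12). The median was 0.00 with limma-voom, -0.03 with at least 10 counts in every mouse, -0.04 with a covariate for muscle against epithelium (smooth muscle minus colon epithelium markers), and -0.06, -0.02 and -0.04 without Control 2, Control 7 and Control 9. Over the whole table, limma-voom called 3911 of 14146 tested genes higher and 4180 lower, beside 1889 and 1903 with edgeR. Each limma-voom call in the text stands beside those totals. Ltb encodes lymphotoxin beta, a membrane ligand that lymphocytes use to organize lymphoid tissue. In CPM, counts scaled to a common library size, Control mice held 1.86 to 3.48 (median 2.37) and GWI mice 0.505 to 2.02 (median 1.45). GWI 8 and GWI 1 reached into the Control range, and the other 6 GWI mice lay below every Control mouse. On the log2 scale the change was -0.90 (SE 0.24, edgeR adjusted p = 0.012), and with a covariate for lymphocytes (B and T cell markers) it was -0.62 and no longer called (adjusted p = 0.0742).

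Tnfsf12, also called TWEAK, binds the receptor encoded by Tnfrsf12a. It ranged over 3.94 to 14.4 CPM in the Control group (median 9.49) and 3.38 to 7.63 CPM in the GWI group (median 4.99). The groups overlapped: 6 Control mice lay above every GWI mouse, and Control 8 and Control 9 were among those within the GWI range. GWI over Control gave a log2 fold change of -0.83 (SE 0.24, edgeR adjusted p = 0.0172). With the covariate for muscle against epithelium, the value turned to 0.07 (adjusted p = 0.808). Tnfsf12 shares exons on the same strand with Tnfsfm13, a read-through transcript into Tnfsf13, and unique gene counts can split or lose reads of such exons. Tnfsfm13 itself had a log2 fold change of -0.17 and Tnfsf13, which encodes APRIL, 0.23, neither of them called by edgeR. With limma-voom Tnfsf13 was called at 0.42 (adjusted p = 0.00589), and with the covariate for muscle against epithelium it was -0.14 (adjusted p = 0.497). Tnfsf13os, a transcript of the opposite strand that overlaps Tnfsf13, had 0.27 (edgeR adjusted p = 0.181), and it was 0.42 with the covariate for lymphocytes (adjusted p = 0.0493), 0.07 with that for muscle against epithelium (adjusted p = 0.808) and 0.17 without GWI 3. Whether the counting used strand is not given in the sources used here.

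Tnfsf10, the TRAIL ligand, had the highest mean CPM of the ligands. It ranged over 6.63 to 27.5 CPM in the Control group (median 12.8) and 7.88 to 20.7 CPM in the GWI group (median 16.1), within the Control range throughout. Its log2 fold change was 0.03 (SE 0.27, edgeR adjusted p = 0.954), but 0.42 with limma-voom (adjusted p = 0.0448) and -0.52 with the covariate for muscle against epithelium (adjusted p = 0.166). Leaving out Control 1, Control 2, Control 3, Control 4, GWI 1 or GWI 3 turned the edgeR value below 0, down to -0.06. Per kilobase of exon, Tnfsf13 was the most abundant ligand, with 8.07 CPM per kb in Control and 9.47 in GWI colons. Tnfsf12 (5.90 and 3.31 CPM per kb) and Tnfsf10 (2.89 and 2.94 CPM per kb) followed in Control colons. The other tested ligands, Eda, Tnfsf9, Tnfsf13b and Tnfsf15, had log2 fold changes between -0.41 and 0.22 and were not called by edgeR. Of these, limma-voom called Eda lower (-0.77, adjusted p = 0.0115) and Tnfsf13b higher (0.28, adjusted p = 0.00926), and Eda turned to 0.70 (adjusted p = 0.155) with the covariate for muscle against epithelium.

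Tnf itself was too rare for the test. Control mice had 0 to 11 raw counts and GWI mice 7 to 17. In CPM the Control mice spanned 0 to 0.695 (median 0.245) and the GWI mice 0.430 to 0.918 (median 0.580). Control 1 and Control 9 lay inside the GWI range and the other 7 Control mice lay below it. The mean was 0.372 CPM higher in GWI mice (two-sided exact permutation test over all 24310 splits, p = 0.00321, n = 9 and 8). At so few counts the result depended on the tool: without the filter on low counts, the log2 fold change was 1.32 with edgeR (adjusted p = 0.069) and 1.34 with the DESeq2 Wald test (adjusted p = 0.0201). The other 9 untested ligands (Cd40lg, Cd70, Fasl, Lta, Tnfsf11, Tnfsf14, Tnfsf18, Tnfsf4 and Tnfsf8) had at most 20 counts in any mouse, and without the filter their edgeR adjusted p lay between 0.0986 (Tnfsf4) and 0.996 (Tnfsf18). Cd40lg had 3 counts in Control 1 and Cd70 1 count in Control 3, and both had 0 in all other mice. No member was at 0 in every mouse.

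Among the receptors with a death domain, 2 of the 5 tested were higher, 0 were lower (also 0 at an unadjusted p under 0.05, by the DESeq2 Wald test and by limma-voom), and the median log2 fold change was 0.40. With limma-voom 4 were higher and the median was 0.61, with the covariate for muscle against epithelium 3 and 0.68, with that for lymphocytes 2 and 0.22, and without Control 9 3 and 0.46. Tnfrsf10b, the mouse receptor for TRAIL, ranged over 2.28 to 5.94 CPM in the Control group (median 4.12) and 5.26 to 9.14 CPM in the GWI group (median 6.71). Only Control 1 and Control 2 reached the lowest GWI mice. Its log2 fold change was 0.70 (SE 0.18, edgeR adjusted p = 0.00925). Tnfrsf21, or death receptor 6, which has been studied in neurons and lymphocytes, ranged over 51.0 to 107 CPM in the Control group (median 68.6) and 77.5 to 142 CPM in the GWI group (median 104). Control 1 was the highest Control mouse for both genes and the groups overlapped. Tnfrsf21 had a log2 fold change of 0.63 (SE 0.15, edgeR adjusted p = 0.00668).

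Fas, the receptor for Fas ligand, was not called by edgeR with all mice and group as the only term. It ranged over 6.34 to 22.4 CPM in the Control group (median 10.7) and 11.9 to 19.2 CPM in the GWI group (median 13.8). Control 9 held the highest value of all 17 mice, and 5 Control mice lay below every GWI mouse. This was a log2 fold change of 0.29 (SE 0.19, edgeR adjusted p = 0.25), and it was 0.46 with an adjusted p of 0.0234 when Control 9 was left out. With limma-voom and all mice kept, Fas was called higher at 0.51 (adjusted p = 0.00285), in a fit that called 3911 of 14146 genes higher. With the covariate for muscle against epithelium the value of Fas was 0.00 (adjusted p = 0.994). Tnfrsf1a, the broadly expressed receptor for TNF, ranged over 29.8 to 84.6 CPM in the Control group (median 74.6) and 64.0 to 88.9 CPM in the GWI group (median 74.3). Control 9 was again apart from the other Control mice, here at the low end, and the medians were nearly equal. Its log2 fold change was 0.14 (SE 0.15, edgeR adjusted p = 0.496), and 0.68 (adjusted p = 0.00415) with the covariate for muscle against epithelium. It was -0.0026 with limma-voom (adjusted p = 0.981), 0.09 with the covariate for lymphocytes and 0.05 without Control 9. Tnfrsf25 had a log2 fold change of 0.40 and was called by limma-voom (0.71, adjusted p = 0.0497) but not by edgeR, and Edar was not tested.

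Cd40, the costimulatory receptor of B cells, dendritic cells and macrophages, had the largest change among the members. It lies on chromosome 2 (GRCm38, 165055627 to 165072948). Its raw counts were 12 to 23 in Control mice and 13 to 111 in GWI mice. In CPM the Control group spanned 0.662 to 1.31 (median 0.882) and the GWI group 0.677 to 6.60 (median 3.64). GWI 1, at 0.677 CPM, lay at the low end of the Control mice, whereas the other 7 GWI mice lay above every Control mouse. The mean was 0.955 ± 0.205 CPM (SD, n = 9) in Control and 3.91 ± 1.95 CPM (SD, n = 8) in GWI colons. The log2 fold change was 2.02 (SE 0.32, edgeR adjusted p = 0.000702), and 1.37 to 2.17 over the alternative fits. In bulk tissue, fewer cells of a type and less RNA per cell cannot be told apart, and this holds for every gene described here. Markers of cell types known to carry Cd40 were read beside it: 0 of 2 tested B cell markers were called, 2 of 3 tested dendritic cell markers were lower, and of 9 tested macrophage markers 1 was higher and 1 was lower (median -0.35). Fitted with the covariate for muscle against epithelium, 0 macrophage markers were higher and 0 lower (median 0.04), and 1 dendritic cell marker was lower. The lower macrophage markers were 6 with limma-voom, 3 without Control 9 and 0 without Control 3, Control 6, GWI 3, GWI 4 or GWI 6, and 1 dendritic cell marker was lower without Control 1, 3, 4, 5 or 8 or GWI 2, 3, 6, 7 or 8.

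Of the 9 tested receptors that signal through TRAF adaptors, Cd40 and Tnfrsf11a were higher, 0 were lower, and the median log2 fold change was 0.25. Tnfrsf18, a receptor of regulatory T cells, was lower at an unadjusted p under 0.05 in edgeR and was called lower by the DESeq2 Wald test, by edgeR without Control 4 (adjusted p = 0.045) and with the covariate for muscle against epithelium (-0.85, adjusted p = 0.0285), whereas limma-voom called 0 lower. The count of higher ones was 4 with limma-voom and without Control 1, and 3 without GWI 8. Tnfrsf11a encodes RANK, the receptor through which epithelial M cells and osteoclasts develop. It ranged over 43.4 to 78.5 CPM in the Control group (median 53.9) and 58.1 to 85.3 CPM in the GWI group (median 70.4). Control 1, Control 8 and Control 9 lay inside the GWI range. On the log2 scale the change was 0.31 (SE 0.11, edgeR adjusted p = 0.0367). This call sat near the threshold and was lost when Control 3, 4, 5, 6 or 7 or GWI 1, 2, 4, 5, 6 or 7 was left out, with adjusted p up to 0.068. It was also lost without Control 6 and Control 7 (adjusted p = 0.0958), with the covariate for muscle against epithelium (0.23, adjusted p = 0.214) and with that for lymphocytes (0.34, adjusted p = 0.0568).

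Ltbr, the receptor for lymphotoxin on stromal and epithelial cells, had the highest mean CPM of this group. It ranged over 76.3 to 113 CPM in the Control group (median 106) and 101 to 114 CPM in the GWI group (median 107). Control 9 was the lowest mouse, 3 Control mice lay below every GWI mouse, and the log2 fold change was 0.08 (SE 0.07, edgeR adjusted p = 0.405), or 0.05 without Control 9 and 0.04 to 0.17 over the alternative fits. Tnfrsf1b, the TNF receptor found mainly on immune and endothelial cells, ranged over 7.67 to 25.1 CPM in the Control group (median 13.5) and 12.2 to 22.0 CPM in the GWI group (median 19.7). Control 1 was above and GWI 8 below the other mice of their groups. GWI over Control gave a log2 fold change of 0.43 (SE 0.18, edgeR adjusted p = 0.0837). Without Control 1 the adjusted p was 0.00684, and without GWI 8 it was 0.0446. It was called as well by limma-voom (0.62, adjusted p = 0.00019) and with the covariate for lymphocytes (0.61, adjusted p = 0.0374). The other tested receptors of this group, Tnfrsf12a, Tnfrsf13b, Tnfrsf14, Tnfrsf18 and Tnfrsf19, had log2 fold changes between -0.59 and 0.29. None of them was called by edgeR with all mice and no covariate. Limma-voom called Tnfrsf14 higher (0.56, adjusted p = 0.00414), whereas the covariate for muscle against epithelium turned it to -0.16, and Tnfrsf12a was called without Control 1 (0.42, adjusted p = 0.0457). Receptors of activated lymphocytes and plasma cells (Cd27, Tnfrsf13c, Tnfrsf17, Tnfrsf4, Tnfrsf8 and Tnfrsf9) had at most 20 counts in any mouse and were not tested. Without the filter on low counts, their edgeR adjusted p lay between 0.162 (Tnfrsf4) and 0.729 (Cd27).

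None of the 3 tested decoy or soluble receptors was called by edgeR, by the DESeq2 Wald test or by limma-voom, and 1 was lower at an unadjusted p under 0.05 (Tnfrsf11b, edgeR). Tnfrsf11b, or osteoprotegerin, a secreted decoy for the ligand of RANK, ranged over 4.03 to 10.7 CPM in the Control group (median 4.62) and 2.19 to 6.75 CPM in the GWI group (median 4.13). The groups overlapped, and 4 GWI mice lay below every Control mouse. This was a log2 fold change of -0.51 (SE 0.24, edgeR adjusted p = 0.12), and -0.65 with an adjusted p of 0.0458 without GWI 5. Without Control 1 it was -0.33 (adjusted p = 0.236), and with the covariate for muscle against epithelium -0.16 (adjusted p = 0.702). Tnfrsf22 and Tnfrsf23 had log2 fold changes of -0.03 and 0.24, and Tnfrsf26 was not tested. These 3 genes are close relatives that stand side by side on chromosome 7, so reads that match more than 1 of them make their counts uncertain.

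All 7 TRAF adaptors were tested, 3 were higher, 1 was lower, and the median log2 fold change was 0.18 (0.29 with the covariate for muscle against epithelium, where 4 were higher and 0 lower). Traf4, an adaptor abundant in epithelium, ranged over 31.5 to 52.2 CPM in the Control group (median 36.9) and 54.0 to 76.9 CPM in the GWI group (median 65.0). All 8 GWI mice lay above all 9 Control mice. The log2 fold change was 0.65 (SE 0.11, edgeR adjusted p = 0.0012), and 0.41 (adjusted p = 0.0207) with the covariate for muscle against epithelium. Traf6, the ubiquitin ligase shared by CD40, RANK and Toll-like receptor signaling, ranged over 26.2 to 32.1 CPM in the Control group (median 28.3) and 30.9 to 37.8 CPM in the GWI group (median 36.0). Only Control 9 reached into the GWI range. The change was small and tight, with a log2 fold change of 0.29 (SE 0.07, edgeR adjusted p = 0.0058), and 0.18 (adjusted p = 0.107) with the covariate for muscle against epithelium.

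Traf1, an adaptor that is itself induced by NF-kB, ranged over 3.72 to 9.47 CPM in the Control group (median 7.32) and 6.30 to 21.1 CPM in the GWI group (median 10.2). GWI 5 stood highest, and GWI 1, GWI 2 and GWI 8 lay within the Control range. On the log2 scale the change was 0.63 (SE 0.22, edgeR adjusted p = 0.04). The call was lost when Control 3, 6, 8 or 9 or GWI 3, 4, 5, 6 or 7 was left out, with adjusted p up to 0.0869 and a log2 fold change of 0.44 without GWI 5. It was lost also with limma-voom (0.41, adjusted p = 0.0596), library size alone (0.60, adjusted p = 0.0565), the covariate for lymphocytes (0.52, adjusted p = 0.162), without Control 6 and Control 7 (adjusted p = 0.0823) and without Control 1 and Control 9 (adjusted p = 0.0666). Traf5, an adaptor of lymphocyte costimulatory receptors, went the other way, with a range of 5.71 to 14.4 CPM in the Control group (median 8.09) and 4.08 to 6.78 CPM in the GWI group (median 5.40). Control 8 and Control 9 fell within the GWI range. GWI over Control gave a log2 fold change of -0.76 (SE 0.18, edgeR adjusted p = 0.00617), and -0.26 (adjusted p = 0.288) with the covariate for muscle against epithelium. Traf7, the adaptor with the highest mean CPM, ranged over 51.6 to 73.9 CPM in the Control group (median 64.2) and 65.8 to 81.5 CPM in the GWI group (median 70.0). These ranges overlapped, and the log2 fold change of 0.18 (SE 0.07) had an edgeR adjusted p of 0.0704, or 0.023 without Control 1. Traf7 was called higher by the DESeq2 Wald test (adjusted p = 0.0338), by limma-voom (adjusted p = 0.00302) and with the covariate for muscle against epithelium (0.29, adjusted p = 0.0204). Traf2 and Traf3 had log2 fold changes of 0.18 and 0.17 and were not called, and with that covariate Traf3 was called at 0.59 (adjusted p = 0.00968).

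All 8 Tnfaip genes, grouped by symbol and not by a shown response to TNF, were tested, Tnfaip8 and genes named after it among them. Of these, 1 was higher, 1 was lower, and the median log2 fold change was -0.32, or 0.18 with the covariate for muscle against epithelium, -0.04 with at least 10 counts in every mouse and -0.18 without Control 6 and Control 7. With limma-voom 2 were higher (Tnfaip1 and Tnfaip3) and 2 lower (Tnfaip8 and Tnfaip8l3). Tnfaip1, a substrate adaptor of a cullin ubiquitin ligase, ranged over 101 to 195 CPM in the Control group (median 124) and 124 to 198 CPM in the GWI group (median 166). Control 1 stood far above the other Control mice. This was a log2 fold change of 0.37 (SE 0.12, edgeR adjusted p = 0.0356), and the call was lost when Control 3, 5, 6, 7 or 8 or any of GWI 3 to GWI 8 was left out, with adjusted p up to 0.07. It was lost also with library size alone (adjusted p = 0.0535), without the filter on low counts (0.0528), without Control 6 and Control 7 (0.0954) and with the covariate for lymphocytes (0.31, adjusted p = 0.133). Tnfaip8, which carries phosphoinositide lipids, ranged over 62.6 to 145 CPM in the Control group (median 83.8) and 57.6 to 82.7 CPM in the GWI group (median 61.6). Control 9 was the highest and the groups overlapped. The log2 fold change was -0.48 (SE 0.15, edgeR adjusted p = 0.0255), with an adjusted p of 0.0518 without GWI 6, 0.0519 without GWI 7 and 0.0974 with the covariate for lymphocytes (-0.39). It was -0.75 (adjusted p = 0.00265) with the covariate for muscle against epithelium. Tnfaip3, or A20, the deubiquitinase that ends NF-kB signaling, had a log2 fold change of 0.43 (edgeR adjusted p = 0.338). Its highest values were 91.0 CPM in Control 1 and 81.9 CPM in GWI 5. Without Control 1 it was called higher by edgeR at 0.88 (adjusted p = 0.00421), and with all mice it was called by limma-voom at 0.55 (adjusted p = 0.0131).

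**Figure D2:**
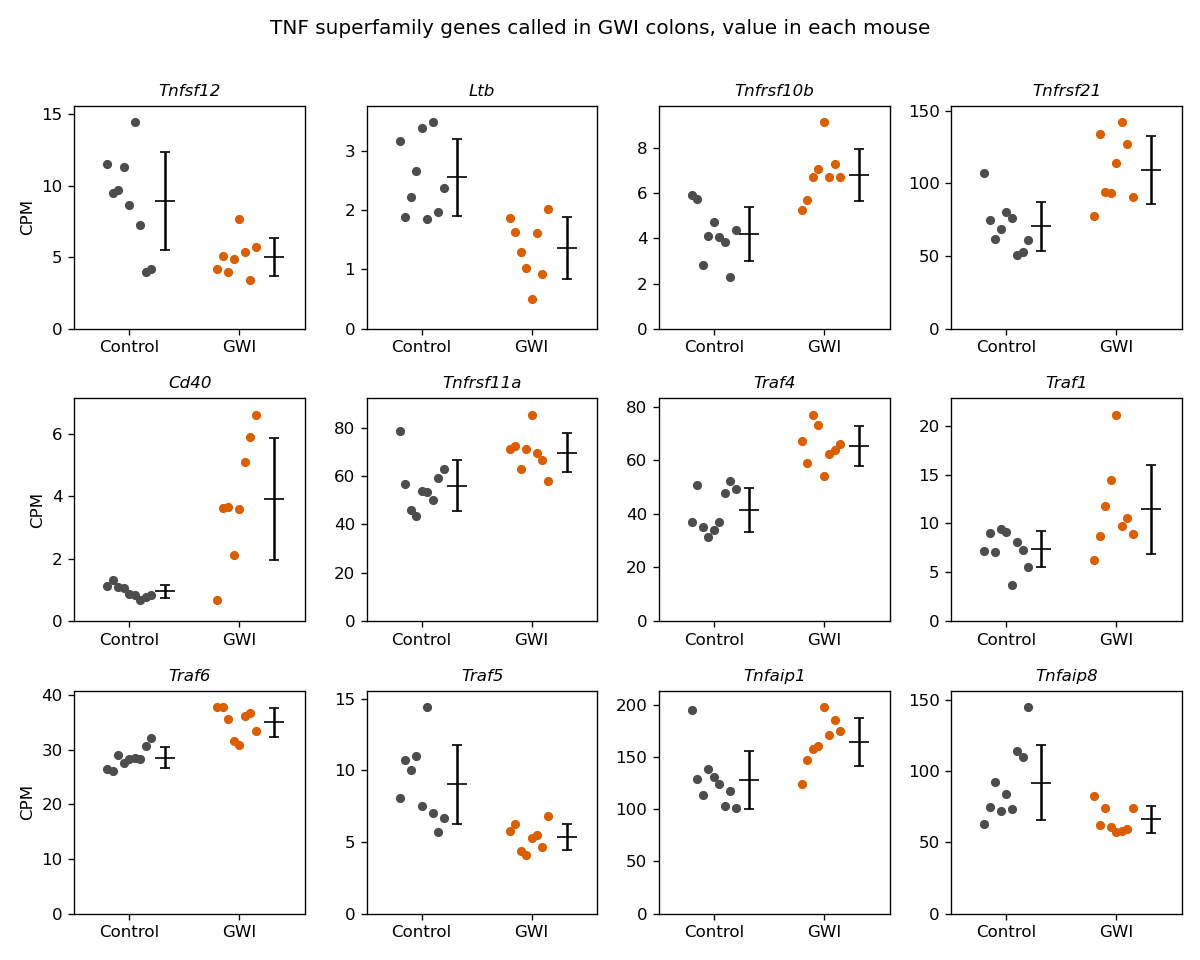
CPM of the 12 called members (vertical axes, each from 0) in each of the 9 Control and 8 GWI mice, with points ordered by replicate number and the mean ± SD beside them. The groups are apart in Traf4 alone, and GWI 1 lies with the Control mice in Cd40.

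Compared per kilobase of exon, the members with the highest levels in Control colons were Ltbr (43.0 CPM per kb), Tnfaip1 (33.8), Tnfrsf1a (26.0), Tnfrsf21 (17.1) and Traf4 (12.6). In GWI colons the order was Ltbr (45.6 CPM per kb), Tnfaip1 (43.6), Tnfrsf1a (28.7), Tnfrsf21 (26.6) and Traf4 (19.8). Cd40 rose from 0.280 to 1.15 CPM per kb and stayed far below the receptors of TNF and lymphotoxin.

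The members lie on 18 chromosomes, with 10 on chromosome 17 and 9 on chromosome 4. Ltb (35194439 to 35196320), Tnf (35199381 to 35202007) and Lta (35203165 to 35205351) are neighbors on chromosome 17. Ltb was lower, and Tnf and Lta had too few counts for the filtered edgeR test. The DESeq2 Wald test called Tnf higher (1.34, adjusted p = 0.0201) and did not call Lta (adjusted p = 0.56). Without the filter on low counts, edgeR did not call Tnf (adjusted p = 0.069). None of the 9 members on chromosome 4, 5 of them tested, was called by edgeR with all mice and no covariate, whereas limma-voom called Tnfrsf14, Tnfrsf1b and Tnfrsf25 and the DESeq2 Wald test called Tnfrsf18. Traf4 and Tnfaip1, both higher, lie on chromosome 11, as does Tnfsf12, which was lower. Cd40, Traf1 and Traf6, also higher, lie on chromosome 2.

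Genes downstream of the receptors were read from lists of textbook members. Of 25 tested adaptors and ubiquitin enzymes of receptor signaling, 7 were higher and 1 was lower, where 13.4% and 13.5% of all tested genes were. Their median log2 fold change was 0.24. The count of higher genes was 18 with limma-voom, 11 without Control 9, 15 without Control 1 and Control 9, and 4 without Control 6 and Control 7. In the same fits the higher genes of the whole table were 3911, 2272, 2786 and 1426, beside 1889 in the main fit. Tab2, which couples ubiquitin chains to the kinase TAK1, ranged over 99.6 to 116 CPM in the Control group (median 110) and 128 to 148 CPM in the GWI group (median 138), with no overlap. Its log2 fold change was 0.35 (SE 0.06, edgeR adjusted p = 0.00117). Rnf31, the catalytic subunit of the linear ubiquitin ligase, had a log2 fold change of 0.54 (edgeR adjusted p = 0.0018), but it shares exonic bases on the same strand with Irf9. Ripk3, the kinase of necroptosis, had 0.64 (edgeR adjusted p = 0.00646), and Map3k5, a stress kinase, 0.31 (edgeR adjusted p = 0.00839). Xiap had the highest mean CPM of the list and was not called by edgeR. With the covariate for muscle against epithelium, 7 were higher and 4 lower in this list and its median was -0.03.

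The NF-kB kinases, subunits and inhibitors had 7 of 15 tested genes higher and 0 lower, with a median log2 fold change of 0.34. At an unadjusted p under 0.05, edgeR had 9 higher and 0 lower, and the DESeq2 Wald test and limma-voom called 8 and 12 higher and 0 lower. Of all genes, the DESeq2 Wald test called 2174 of 19717 higher and limma-voom 3911 of 14146. With the covariate for muscle against epithelium, 9 were higher and 1 was lower, and the median was 0.63. Rel, a subunit of lymphoid and myeloid cells, ranged over 4.64 to 11.4 CPM in the Control group (median 5.14) and 9.16 to 14.8 CPM in the GWI group (median 11.9). Control 9 alone among the Control mice reached the GWI range. Its log2 fold change was 0.97 (SE 0.17, edgeR adjusted p = 0.00149). Ikbkb, the kinase that releases the canonical subunits, had a log2 fold change of 0.34 (edgeR adjusted p = 0.00271). Relb, the partner subunit in signaling from CD40 and the lymphotoxin receptor, had 0.57 (edgeR adjusted p = 0.00345), and Nfkb2, the precursor in the same branch, 0.56 (edgeR adjusted p = 0.00861), or 0.86 with the covariate for muscle against epithelium. Nfkb1, Nfkbib and Bcl3 were the other higher genes, and Chuk, the most abundant by CPM, was not called by edgeR.

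Genes that TNF induces in many cell types were read as a list of their own. Of 18 tested, 1 was higher and 1 was lower, where 13.4% and 13.5% of all tested genes were, and the median log2 fold change was -0.14, which turned to 0.13 with the covariate for muscle against epithelium. Limma-voom called 2 higher and 4 lower, and there were 2 higher and 0 lower without Control 1 and 3 lower without GWI 8. Without Control 2 or Control 8, 2 were lower. The median was -0.28 with the DESeq2 Wald test, -0.22 with the covariate for lymphocytes, -0.26 without GWI 8 and -0.23 without GWI 7. Irf1, a transcription factor, ranged over 72.4 to 171 CPM in the Control group (median 114) and 156 to 201 CPM in the GWI group (median 171). In 8 Control mice the level was below that of every GWI mouse. Its log2 fold change was 0.60 (SE 0.13, edgeR adjusted p = 0.0048). Ccl7, a monocyte chemokine, had -0.97 (edgeR adjusted p = 0.0326), and this call was lost without Control 1, Control 6, GWI 1, GWI 4, GWI 6 or GWI 7 (adjusted p up to 0.0639), without Control 6 and Control 7 (0.0676), Control 1 and Control 9 (0.0572) or GWI 1 and Control 9 (0.0631), and with the covariates for muscle against epithelium (-0.74, adjusted p = 0.18) and for lymphocytes (-0.90, adjusted p = 0.089). Il6, the most abundant of the list by CPM, had a log2 fold change of 0.23 and was not called by edgeR. The fold changes of the 16 uncalled genes ran from -0.80 (Ccl20) to 0.66 (Saa3) on the log2 scale.

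Of 3 receptors of the superfamily that the symbol rule leaves out, 0 were higher (also at an unadjusted p under 0.05 and by the DESeq2 Wald test and limma-voom) and 1 was lower. Ngfr, the p75 neurotrophin receptor of glia and neural progenitors, ranged over 2.23 to 116 CPM in the Control group (median 76.2) and 7.93 to 25.3 CPM in the GWI group (median 12.2). Control 9 held the lowest value of all mice and the other 8 Control mice lay above every GWI mouse. On the log2 scale the change was -2.32 (SE 0.46, edgeR adjusted p = 0.00247).

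The tissue markers moved with group as well, read beside 13.4% of all tested genes higher and 13.5% lower. Of 11 colon epithelium markers, all tested, 5 were higher and 0 lower (median 0.38 on the log2 scale), with a summed level of 24100 to 41400 CPM in Control and 27200 to 45200 CPM in GWI mice and Car1 as the most abundant. The count of higher ones was 8 with limma-voom or without Control 1, and as low as 3 without other single mice (Control 3, 4, 6 or 8 or GWI 2, 3, 4, 6 or 7). Of 10 smooth muscle markers, 0 were higher and 7 lower (median -0.91), and 0 were higher also at an unadjusted p under 0.05, by the DESeq2 Wald test and by limma-voom. The count of lower ones depended on single mice and on the tool. It was 2 without Control 6, GWI 3, GWI 4, GWI 6 or GWI 7, 3 without any of Control 1 to Control 5, GWI 1 or GWI 2, and 10 without GWI 5, at an unadjusted p under 0.05 and with limma-voom. Their summed level ran from 3690 to 23900 CPM in Control mice, with Control 7 (6790 CPM), Control 8 (4700 CPM) and Control 9 (3690 CPM) lowest and Myh11 the most abundant gene, and from 3660 to 11800 CPM in GWI mice. Fibroblast markers had 2 of 7 lower, endothelial markers 3 of 7 and markers of enteric neurons and glia 1 of 10, with 0 higher in each, and 0 higher also at an unadjusted p under 0.05, by the DESeq2 Wald test and by limma-voom. Under the covariate for muscle against epithelium, 2 fibroblast, 0 endothelial and 1 neural and glial marker were higher and 0 lower, and the medians turned from -0.34, -0.69 and -0.61 to 0.08, 0.31 and 0.54. The lower ones were 5 fibroblast, 6 endothelial and 8 neural and glial markers with limma-voom. With the DESeq2 Wald test they were 2, 3 and 3, and without 1 mouse they were 2 to 3, 1 to 5 and 1 to 3 (3 fibroblast without GWI 5, 5 endothelial without Control 9 and 1 without Control 6, GWI 3, GWI 4 or GWI 6, and 3 neural and glial without Control 8, Control 9 or GWI 8). Among these, Col3a1, Lyve1 and Uchl1 were the most abundant genes. Small intestine markers had 1 of 6 tested higher and 2 lower, with the highest sum, 1590 CPM, in Control 7 and Slc10a2 the most abundant, while limma-voom called 2 higher and 0 lower. Adipocyte markers had 1 of 6 higher and 0 lower with a median of 1.09, and all 6 had a fold change above 0, with Fabp4 the most abundant. They summed to 36.6 to 266 CPM in Control mice and 88.6 to 789 CPM in GWI mice, highest in GWI 7, and the groups overlapped. Without 1 mouse, 0 to 1 small intestine markers were higher and 1 to 2 lower, and 0 to 2 adipocyte markers were higher. The adipocyte median was 0.62 without GWI 7. The higher adipocyte markers were 0 with the covariate for muscle against epithelium or for lymphocytes, and 3 without Control 1 and Control 9. With the covariate for muscle against epithelium, the calls of Tnfsf12, Tnfrsf11a, Traf5 and Traf6 were lost, those of the other 8 members held, and Tnfrsf18, Tnfrsf1a, Traf3 and Traf7 were called in addition. The score behind this covariate largely followed group, and it was built from markers that were themselves called in this comparison. Only Control 8 (-0.96) and Control 9 (-1.35) scored among the GWI mice. Every other Control mouse, down to Control 7 at -0.123, scored above the highest GWI mouse, GWI 8 at -0.238. Calls lost, kept or gained with this covariate therefore do not separate tissue composition from group. Beyond the fit with the covariate for lymphocytes, the part of tissue composition in these results was not tested.

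Markers of B, T, dendritic and mast cells were scarce. Where a count of 0 called markers is given for them, edgeR also had 0 at an unadjusted p under 0.05 except for 1 natural killer and innate lymphoid marker (lower), the DESeq2 Wald test had 0 except for 1 B cell marker (lower), and limma-voom had 0 except for 1 lymphoid stroma marker (higher) and 3 follicle epithelium markers (1 higher and 2 lower). Without Control 1, 1 T cell marker was lower and 1 natural killer and innate lymphoid and 1 follicle epithelium marker were higher. Without Control 2, 1 natural killer and innate lymphoid marker was lower, and without Control 9, 2 follicle epithelium markers. In the fit with the covariate for muscle against epithelium, 1 natural killer and innate lymphoid marker was lower and 1 follicle epithelium marker was higher and 1 lower. B cell markers summed to 2.44 to 17.1 CPM in Control mice and 2.21 to 11.0 CPM in GWI mice, highest in Control 1 and GWI 1, with Cxcr5 the most abundant and 2 of 12 tested. T cell markers summed to 5.81 to 19.0 CPM in Control and 6.94 to 19.7 CPM in GWI mice, with Lck the most abundant and 0 of 7 tested called. Plasma cell markers were more abundant, with sums of 225 to 570 CPM in Control and 343 to 500 CPM in GWI mice, and 1 of 5 tested was higher (Sdc1, the most abundant, which epithelium also expresses). Natural killer and innate lymphoid markers summed to 95.9 to 192 CPM in Control and 121 to 204 CPM in GWI mice, with Kit, which other cells of the gut wall also carry, the most abundant and 0 of 5 called. Dendritic cell markers summed to 4.26 to 10.9 CPM in Control and 3.73 to 6.24 CPM in GWI mice, and Zbtb46 was the most abundant. Macrophage markers summed to 80.2 to 110 CPM in Control and 88.3 to 109 CPM in GWI mice, with Mertk the most abundant. Lymphoid stroma markers (Cxcl13 the most abundant) had 0 of 3 tested called, follicle epithelium markers (Anxa5) 0 of 6, and mast cell markers (Tpsb2) had none tested, with a sum of at most 2.07 CPM. With the covariate for lymphocytes, Ltb, Tnfaip8, Tnfaip1, Tnfrsf11a and Traf1 were no longer called. The fold change of Tnfrsf11a was not smaller in that fit (0.34 beside 0.31), and those of Tnfaip1 (0.31 beside 0.37), Traf1 (0.52 beside 0.63), Tnfaip8 (-0.39 beside -0.48) and Ltb (-0.62 beside -0.90) were closer to 0.

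As several members and NF-kB genes were higher in the same comparison, member promoters were searched for an NF-kB-like motif, GGGNNTTTCC, on both strands, in RefSeq windows of GRCm38.p6 that run from upstream of each gene start to just past it. Windows were found for 48 of the 60 members, and 6 of them (12.5%) held the motif, against 512 of 27025 genes (1.89%) and 535 of 32851 windows (1.63%) overall. None of the 6 higher members with a window held it, and of the lower ones Ltb did. The others were Tnfaip3, Tnfrsf25, Traf2 and Traf3, not called by edgeR with all mice and no covariate, and Tnfrsf9, not tested. A match describes letters in the window and is neither a site nor a cause. The 3 matches that lie before the gene start annotated by GENCODE are shown on the strand of the gene, 5′ to 3′, with the motif or its reverse complement in capitals, because they place the only match of a called member beside those of uncalled ones. They are at chr17:35194412-35194437 (Ltb, plus strand), chr4:152115708-152115733 (Tnfrsf25, plus strand) and chr12:111166352-111166369 (Traf3, plus strand).
Ltb: gggtgttcGGAAAGTCCCcgggcagg
Tnfrsf25: agacccagGGAAAAGCCCctggctct
Traf3: cggcccgcGGGGATTTCC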

How the data were processed

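The authors used Trimmomatic 0.36 for trimming, STAR 2.5.2b for mapping to GRCm38 and featureCounts for unique gene hits, and deposited raw counts per gene and mouse, without normalization. The annotation release and strand setting are not given in the sources used here. Each of the 17 columns matched a labelled mouse, and 0 columns were left without one. The 48 rows whose symbol occurs again, none of them a member, were kept as separate features. Replicate pairs differed beyond sampling noise (chi-square per degree of freedom 9.41 or more).

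From these counts, genes were filtered with filterByExpr (minimum count 10), scaled by TMM and tested with the robust quasi-likelihood fit of edgeR 4.0.16 in R 4.3.3, with group as the only term, and p-values were adjusted by Benjamini-Hochberg over 14146 genes. Genes with few counts, such as Tnf, carry the largest counting error. Standard errors were derived from the fold change and F statistic. The code was tested on simulated data. Positions, exon lengths and overlaps came from GENCODE M21 of GRCm38, and promoters from RefSeq.

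Members and lists (4 of pathways, 16 of cell types) were chosen with earlier results of these data known. Named in the text were members with an adjusted p under 0.05, Cd40 and Fas as genes named by the study, Tnf and its receptors, the most abundant member of each role by CPM, the 4 called genes of smallest p in each pathway list, and the most abundant gene of each cell type list. Other names were added after their values were seen. Alternatives were DESeq2 size factors, library size alone, the DESeq2 1.42.0 Wald test, limma-voom 3.58.1 with quality weights, no robust estimation, other filters, a replicate block, a random block for shared parts of mouse names (limma-voom), covariates for tissue (smooth muscle minus colon epithelium markers) and lymphocytes (B and T cell markers), each mouse or a pair of mice left out, and other thresholds.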

Additional observations from a re-analysis of the deposited data

Results flagged for a closer look

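Of 128 sets of values (in 1 group, a tested member, Tnf or a gene outside the members that the text names for signaling or cytokines), 20 had a mouse far from the others of its group, and chance alone gives about 1 in 20. Control 1 was far above in Tnfaip1 (195 CPM, nearest mouse 139), Ikbkb (54.8 CPM, nearest 47.4), Tnfaip3 (91.0 CPM, nearest 25.9), Tnfrsf12a (22.4 CPM, nearest 14.0) and Bcl3 (51.7 CPM, nearest 22.2). Control 9 was far above in Fas (22.4 CPM, nearest 13.1), Rel (11.4 CPM, nearest 6.76), Tnfsf15 (5.23 CPM, nearest 3.32), Xiap (296 CPM, nearest 158), Chuk (181 CPM, nearest 111), Il6 (279 CPM, nearest 188) and Ifng (675 CPM, nearest 41.4), and far below in Il4 (1.39 CPM, nearest 2.65). Control 6 was far above in Tnfrsf19 (18.8 CPM, nearest 9.20).

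In GWI mice, GWI 5 was far above in Tnfaip3 (81.9 CPM, nearest 44.3) and Eda (3.34 CPM, nearest 1.55), GWI 7 in Nfkb2 (48.3 CPM, nearest 42.8) and GWI 4 in Il4 (50.5 CPM, nearest 15.3). GWI 8 was far below in Tnfrsf1b (12.2 CPM, nearest 17.7) and GWI 2 in Tnfrsf18 (0.566 CPM, nearest 1.20). Control 1 and Control 9 also lay at the ends of the first principal component (34.6% of the variance), at -72.0 and 58.2, and Control 9 had the lowest TMM factor, 0.799. The cause was not tested.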

How the results depend on the processing

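Cd40, Tnfrsf10b, Tnfrsf21 and Traf4 kept their direction and an adjusted p under 0.05 in all 14 alternative fits and in all 17 fits that left out 1 mouse. Their adjusted p reached at most 0.0199, 0.0404, 0.0363 and 0.0207 in the alternative fits. By setting, counts that moved by over 1.5 times, with the cause not tested, were these. With limma-voom and quality weights, 16 members were higher, and 3911 genes were higher and 4180 lower in all, against 1889 and 1903. With the lymphocyte covariate 2 members were lower (1563 of all genes). Without Control 6 and Control 7 there were 5 members higher (1426 of all genes). At an adjusted p under 0.01, 5 members were higher and 1 lower (833 and 528 of all genes), and at the threshold of the study 1 and 0 with edgeR (92 and 250) and 2 and 0 with the DESeq2 Wald test (182 and 464), since both are stricter or add a fold limit.

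The replicate numbers did not pair the mice: deviations of the 8 same-numbered pairs correlated from -0.506 to 0.115, 1 was over 0.1, and in 0 of 8 was the own number the best match. With the replicate block 7 members were higher and 2 lower, and 1415 genes were higher and 826 lower in all. Ltb (adjusted p = 0.0649), Tnfaip1 (0.12), Tnfaip8 (0.0747), Traf1 (0.0712) and Ccl7 (0.108) were not called with the block, and Fas was (0.0346). Only the Control group has a replicate 9, so the block takes up Control 9, which then adds nothing to the group comparison. Fas was also called by edgeR without Control 9 (adjusted p = 0.0234).

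The 9 pairs of mice that share part of a name had a median chi-square per degree of freedom of 25.3, beside 66.4 in the other 55 pairs. The groups differed in this: such pairs ran from 9.41 to 25.3 in Control mice, beside 20.7 to 390 in other Control pairs. In GWI mice they ran from 14.6 to 92.9, within the 11.1 to 107 of other GWI pairs. With these shared parts as a random block in limma-voom (correlation 0.3, added after seeing the data), 13 members were higher and 6 lower, and 3321 genes were higher and 3565 lower in all. Of the 12 members called by edgeR, Traf1 was not called (0.104), and of those called by limma-voom alone, Tnfaip3, Tnfrsf25 and Tnfsf10 were not, while Tnfrsf1a stood at -0.0061 (adjusted p = 0.96).

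Leaving out 1 mouse gave 5 to 12 members higher and 3 to 5 lower, and 1472 to 2523 genes higher and 1309 to 2295 lower in all. Values that changed sign included Tnfsf12 (0.072) and Tnfsf10 (-0.52) with the covariate for muscle against epithelium, Tnfrsf1a under limma-voom (-0.0026, adjusted p = 0.981), and Tnfsf10 with 1 mouse left out (-0.056 to 0.18). The medians of the TNF-induced genes (0.13), adaptors and ubiquitin enzymes (-0.03), Tnfaip genes (0.18), decoy receptors (0.11) and other ligand transcripts (-0.06) turned with the same covariate, as did those of markers of macrophages (0.04), follicle epithelium (0.32), fibroblasts (0.08), endothelium (0.31), enteric neurons and glia (0.54) and smooth muscle (0.49, part of the covariate). Chosen after seeing the data, leaving out Control 1 and Control 9 gave 11 members higher and 4 lower (median 0.09). In that fit 2786 of all genes were higher and 2778 lower. Leaving out GWI 1 and Control 9, also chosen after seeing the data, gave 9 and 4 members (median 0.08) and 2183 and 1980 of all genes. The 18 untested members had too few counts at this depth to pass the filter.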

Other observations

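The genes in this paragraph were chosen after their values were seen, and their values are given with no cause, which was not tested. The rows of Il4, Il6 and Chat stood first in the count table, which otherwise ran in alphabetical order apart from Ccl5 after Ccl6. Ifng, whose product raises Cd40 in macrophages, had raw counts of 323 to 844 in Control 1 to Control 8, 9678 in Control 9 and 2377 to 9867 in GWI mice. Il4 had 20 to 69 counts in Control mice, 30 in GWI 7 and 223 to 880 in the other GWI mice. Ngfr had 32 counts in Control 9, 695 to 2110 in the other Control mice and 140 to 425 in GWI mice. Control 9 was thus apart from the Control mice in Ifng and Ngfr and with them in Cd40, while GWI 1 was apart from the GWI mice in Cd40 and with them in Ifng and Il4.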
